A study of Oryza sativa with 6 samples.

Results

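The small RNA data of glyphosate-tolerant rice held 75 entries of a particular kind: miRBase names with a number of 1000 or higher whose sequence was 20 to 22 nt long. The rule used name and length and no measured value, and took them from 479 distinct names, but it was written with earlier results of these data known. It left out a short list of numbers: those of reproductive small RNA triggers, of entries that match rRNA and tRNA fragments, and of miR1320, miR1423, miR1425, miR1429, miR1430 and miR1432. The numbers left out held 14 names of 20 to 22 nt, of which 6 could be tested and 2 were called higher in GLY, osa-miR1432-5p_R+1 and osa-miR1320-3p_L-1R+1 (limma adjusted p = 0.00171 and 0.0429), so the counts below depend on that list. The 75 names fell into 49 families by number and carried 73 distinct sequences, because osa-MIR5148a-p5_1ss15GC and its b and c copies had 1 sequence. Of the names, 73 were rice (osa) names, and the other two were a sorghum name, sbi-MIR6232b-p3_2ss6CA18TA, and a poplar name, ptc-miR1448_L+1R+1. The plants were seedlings of CA21, a mutagenized, non-transgenic germplasm with tolerance to the herbicide. In the GLY group they were sprayed at the third-leaf stage with glyphosate, which blocks the shikimate pathway, at 2 mg per ml, and in the CK group they were not sprayed. Leaves were taken once seedlings of a sensitive line given the same spray had died. They gave 3 small RNA libraries per group, and both groups had the same genotype, so the comparison was of sprayed against unsprayed CA21 and included no sensitive line. The paper's methods state 3 replications per group, but neither they nor the labels tie the 3 libraries of a group to separate plants. The p-values below therefore cover the spread between these libraries, which may be technical.

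Plant miRNAs are cut from hairpin transcripts, mostly by the nuclease DCL1, which leaves a duplex of about 21 nt with short 3′ overhangs. One strand is loaded into an Argonaute protein and guides the cutting or translational repression of matching mRNAs, and AGO1, the main carrier of miRNAs, prefers strands that begin with U. High miRBase numbers in rice mostly belong to lineage-specific miRNAs, which are usually held to be young, made from few loci, low in abundance and variably processed. Many such loci also yield longer products of 24 nt that are made by DCL3, and the limit of 22 nt kept those out. In these names, p5 or p3 gives the hairpin arm of a sequence that is not the annotated mature miRNA, L and R give bases gained or lost at the 5′ and 3′ ends, and ss gives substitutions against the miRBase hairpin. By this naming 37 of the 75 were mature miRNAs, 26 of them unchanged in sequence, and 38 were arm entries.

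The sequences below belong to the entries on which the results turn: the most abundant one, those with an unadjusted limma p under 0.05 or called once GLY 2, a library that stood apart, was left out, and their partner arms in the set. They are written 5′ to 3′ with T for U as deposited, and capitals mark the seed, bases 2 to 8. No seed was shared among them.
osa-MIR5794-p3: tGAGGAATcactagtagtcgt
osa-MIR1851-p3_1ss11AG: aCGGAGGAaggagaagagcc
osa-MIR1851-p5_1ss1CT: tTCTTCTTcctccatcctgcg
osa-MIR2122-p5_1ss15CT: gAACTTAGacaccttagcgcc
osa-miR3980a-5p: aATCGACGgcctcagtcaggg
osa-miR3980a-3p: cTGGCCGAggccgtcgattct
osa-miR6251: tGTGTAGCcacattgtaaggg
osa-MIR6251-p3: cTTGCAGCgtggctacatgtg
osa-miR2871a-5p_R-3: gACCGTAGaaactagcataga
osa-miR2871a-3p: tATTTTAGtttctatggtcac
osa-MIR1437a-p5: tGCGGCACcggagctcgccag
osa-miR1437a_R-1: tCCGGCGCcgcactaggcact
osa-MIR1860-p5: tAAAGAGAaaaccagcttcc
osa-MIR1860-p3: aAGCTAGGttttctctttacaa
osa-miR1846d-5p: tCCCACCGagcagccggatctc
osa-miR1846d-3p_L+1: gTATCCGGcgccgcagggagg
osa-MIR3982-p5: tGTGGCGCtccacgtaggcaa
osa-miR3982-3p_L+1R-1: tAGTTGCCtacatggagcgcc
osa-MIR2869-p5: tTGGGAGGtggtgagtactaag
osa-MIR2869-p3: cTTGGTACtcattacctcccg
Across all 75, the only seed that 2 or more of them held was the one of the 3 osa-MIR5148 copies. Length was 21 nt in 56 entries, 22 nt in 16 and 20 nt in 3. The first base was T in 50.7% of the entries, against 54.7% of the 172 conserved names (number under 1000) of the same length and 24.7% of the 81 lineage-specific names of 23 to 25 nt, where A led with 58.0%. Median GC content was 50%, with a range from 19.0% to 76.2%.

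The values were the authors' normalized read counts, which are not whole numbers, and their table totals ran from 136071 to 177269 per library. One library stood apart. A name was tested when 3 or more libraries reached a value of 10, which 251 names did. Their log2 values correlated at 0.928 for GLY 1 with GLY 3, but at 0.640 and 0.557 for GLY 2 with GLY 1 and with GLY 3. CK pairs ran from 0.939 to 0.972. Over the 34 tested entries of the set these values were 0.916, 0.618 and 0.701, with 0.838 to 0.889 for CK. In GLY 2 the lineage-specific names of 23 to 25 nt summed to 18.4% of the table. Results are therefore given with all 6 libraries and again without GLY 2. GLY 2 was picked out by these same values, so leaving it out can narrow the spread within GLY. Calls and adjusted p-values without GLY 2 are therefore a description and not passed tests. About 97931 (GLY 3) to 304775 (CK 3) miRNA reads lay behind a library, as estimated from the step between low values, so a low entry was measured most finely in CK 3. The rRNA and tRNA fragment entries, a sign of RNA quality, made up 13.8% ± 6.32 of the table in CK against 15.9% ± 1.011 in GLY (SD, n = 3). The CK spread came from CK 3, at 6.58% against 16.7% and 18.2% in CK 1 and CK 2. In the paper's read summary, the adaptor and length filter removed a larger share of reads in every GLY library than in any CK library. The share of valid reads was lower in every GLY library. This difference ran with the treatment, and its part in the results was not tested. The entries of miR2118 and miR2275, triggers of reproductive small RNAs and here markers of another tissue, summed to 122 ± 20.7 in CK against 325 ± 269.8 in GLY. Most of that was a 19-nt arm entry of miR2118e, while the mature rice miR2118 entries were at or below 10.1 in CK and at 0 in GLY.

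The set was a small and uneven part of the leaf miRNA table. Its summed value was 3019, 3143 and 3881 in CK 1 to CK 3 and 3451, 2451 and 3352 in GLY 1 to GLY 3, which was 2.22%, 2.12% and 2.36% of the table in CK against 2.22%, 1.38% and 1.99% in GLY. The groups overlapped in the sum, at 3347 ± 466 in CK against 3085 ± 551 in GLY (SD, n = 3), and the lowest library was GLY 2. A single entry, osa-MIR5794-p3, supplied 48.5% to 53.7% of the sum in CK against 46.0%, 37.0% and 41.4% in GLY 1, GLY 2 and GLY 3. Without it the sum was 1657 ± 297 in CK against 1791 ± 219 in GLY. The stacked bars of summed value by family show this weight of 1 entry in each library.

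**Figure D1:**
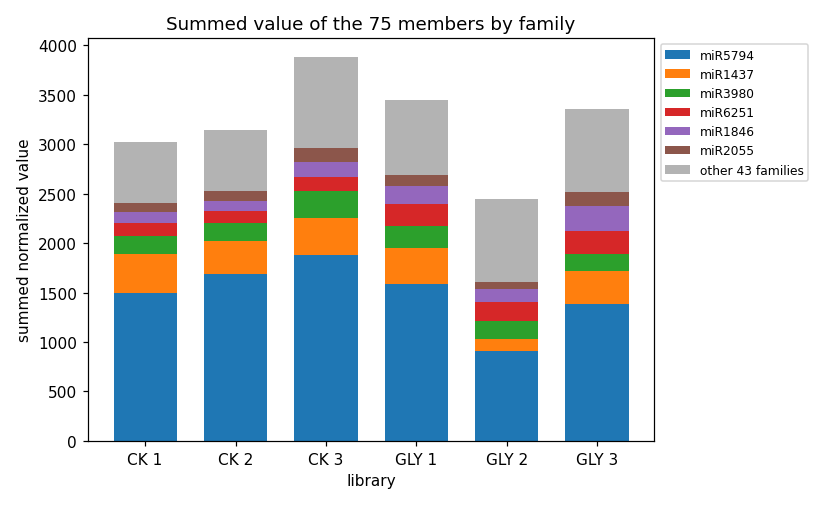
Summed normalized value (vertical axis) of the 75 entries in each of the 6 libraries, stacked by family, with the 6 families of highest mean and the other 43 joined. The miR5794 bar, which is 1 entry, is the largest piece in every library and lowest in GLY 2, where the whole column is also lowest at 2451.

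Detection was patchy. Of the 75 entries, 29 were above 0 in all 6 libraries (38.7%), 10 in a single library, 15 in 2, 8 in 3, 10 in 4 and 3 in 5. The same share was 42.2% over all 479 names, 59.9% for the conserved names of 20 to 22 nt and 22.2% for the longer lineage-specific names. Per library, 49, 42 and 63 entries were above 0 in the CK libraries and 51, 47 and 41 in the GLY libraries (in the order 1 to 3). The highest count was in CK 3 and the lowest in GLY 3, the libraries of highest and lowest estimated depth, and the part of depth in these counts was not tested. Of the 293 values above 0, only 19 lay under 5 estimated reads, and an entry listed at 0 may still have had some reads. The median of the entries' means over the 6 libraries was 7.43, against 46.0 for the conserved names and 12.2 for the longer lineage-specific names. By mean value, 6 entries reached 100 or more, 5 lay between 50 and 100, 23 between 10 and 50, and 41 under 10. The heat map of all entries by library sets the 34 tested ones beside the 41 that did not pass the filter.

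**Figure D2:**
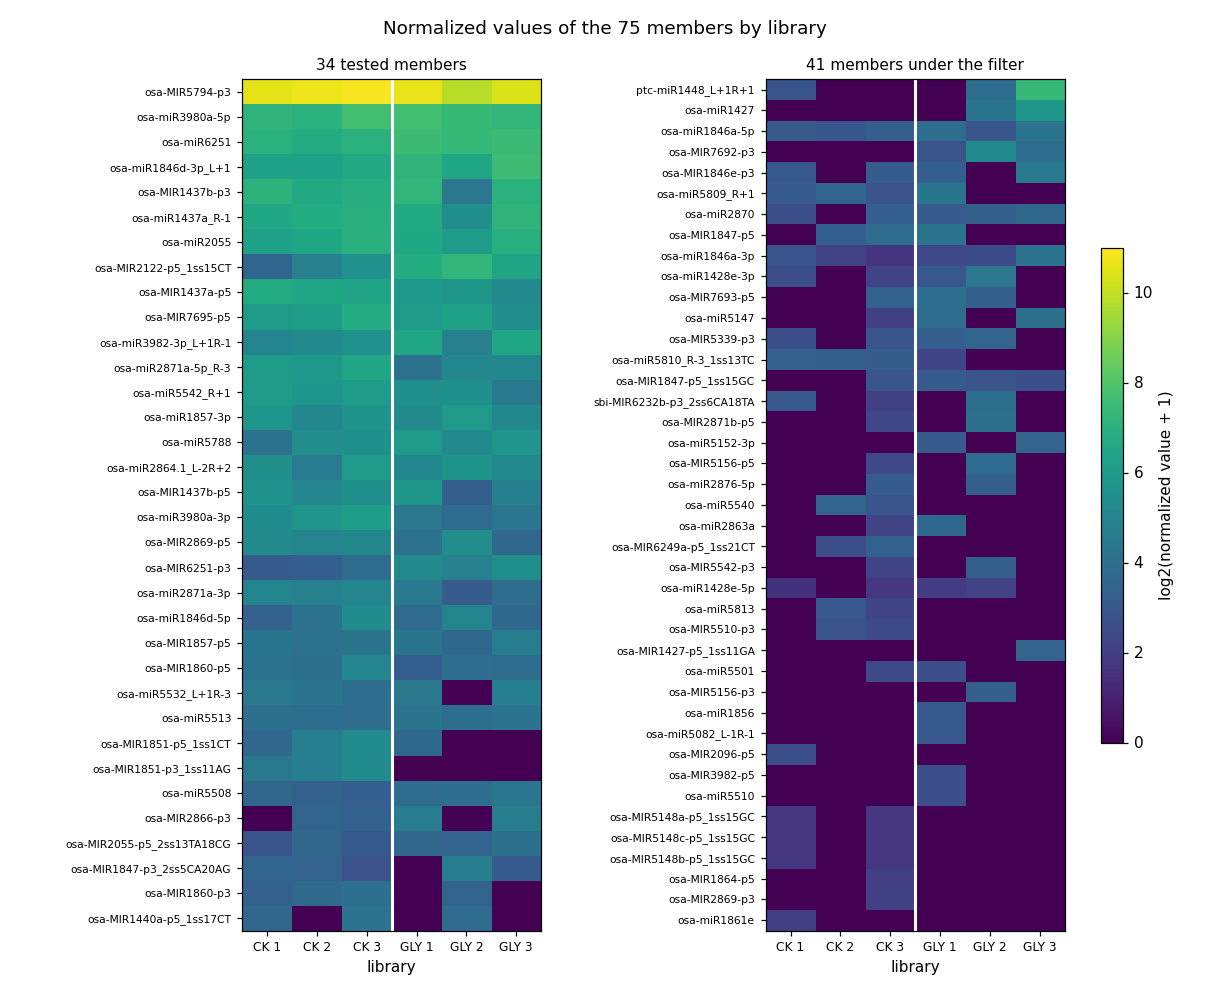
Colour gives log2(normalized value + 1) for each of the 75 entries (rows, by falling mean) in each library (columns, with a white line between CK and GLY). The 34 tested entries are on the left and the 41 others on the right, where most cells are at 0, and osa-MIR5794-p3 is the row of highest value in every library.

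The comparison of GLY with CK asked which of these miRNAs responded to the spray. With limma on log2(value + 1), 28 of the 251 tested names had a Benjamini-Hochberg adjusted p under 0.05, which is 11.2%. By direction, 7.57% of the tested names were higher in GLY and 3.59% lower. Among the 34 tested entries of the set 0 were called higher and 1 lower. At an unadjusted p under 0.05 there were 7 entries, 2 higher and 5 lower, against 27.1% of all tested names. Groups did not overlap for 11 of the 34 entries, 4 higher and 7 lower, which is 32.4% against 35.9% of all tested names. The median log2 difference was -0.39 over the 34 entries, with 22 below 0 and 12 above, and -0.46 over all tested names. The share without overlap and the median were thus near those of the whole table, and the share called, 2.94%, lay under it. For comparison, 23 of 110 tested conserved names of 20 to 22 nt were called, 17 higher and 6 lower, and 0 of 37 tested lineage-specific names of 23 to 25 nt, 0 of which had an unadjusted p under 0.05. No test of the difference between these classes was made.

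**Figure D3:**
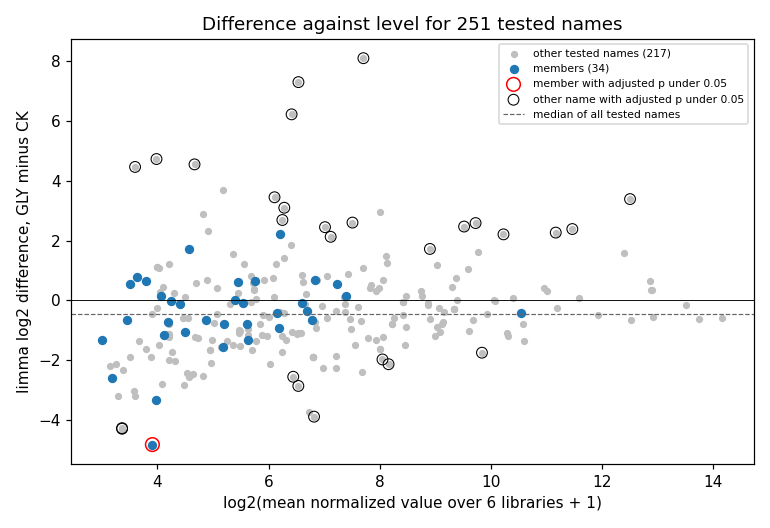
The limma log2 difference (GLY minus CK, vertical axis) is plotted against log2 of the mean value plus 1 for the 251 tested names, with the 34 entries of the set in blue and the 217 others in grey. Circles mark an adjusted p under 0.05; the red one, at -4.81, is osa-MIR1851-p3_1ss11AG, and the dashed line is the median of all tested names at -0.46.

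Without GLY 2 the picture of the set changed in number. Of the 251 names 125 (49.8%) were then called, 15.5% higher and 34.3% lower. Of the 34 entries 10 (29.4%) were called, 4 higher and 6 lower. The higher ones were osa-miR1846d-3p_L+1, osa-MIR2122-p5_1ss15CT, osa-miR3982-3p_L+1R-1 and osa-MIR6251-p3. The lower ones were osa-MIR1437a-p5, osa-MIR1851-p3_1ss11AG, osa-MIR1860-p3, osa-MIR2869-p5, osa-miR2871a-5p_R-3 and osa-miR3980a-3p. The filter still counted GLY 2 here, and osa-MIR1860-p3 passed it only with that library. Groups did not overlap for 20 of 34 entries (58.8%), against 70.1% of all names. In 10 entries GLY 1 and GLY 3 were both above every CK library, and GLY 2 was too in 4 of them. In another 10 entries GLY 1 and GLY 3 were both below every CK library, and GLY 2 was too in 7. Over all 251 names, 176 did not overlap without GLY 2 and 90 with all libraries, against 20 and 11 in the set. Counts by direction were not taken over all names, so they are not read as a trait of the set. Of the 10 entries called without GLY 2, osa-MIR1851-p3_1ss11AG was called in 10 of 15 settings fitted per name. osa-MIR2122-p5_1ss15CT and osa-MIR6251-p3 were called in 2, and the others without GLY 2 alone. Over those settings the highest limma adjusted p per entry ran from 0.121 (osa-MIR1851-p3_1ss11AG) to 0.824 (osa-MIR2869-p5).

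The 1 entry called with all libraries came from the miR1851 hairpin, and both of its arms were low or at 0 after spraying. osa-MIR1851-p3_1ss11AG was at 20.3, 25.4 and 38.4 in CK 1 to CK 3, and was listed at 0 in all 3 GLY libraries (limma log2 difference -4.81 ± 0.73 SE, adjusted p = 0.0143). It passed the filter through CK alone, so an entry like it could differ in 1 direction only, and no fold is given because GLY had no value above 0. The opposite arm, osa-MIR1851-p5_1ss1CT, was at 11.5, 25.4 and 38.9 in CK against 12.3, 0 and 0 in GLY 1 to GLY 3 (-3.32 ± 1.26, adjusted p = 0.158), so CK 1 and GLY 1 overlapped. Summed as a family they were at 53.3 ± 22.9 in CK against 4.10 ± 7.11 in GLY (adjusted p = 0.0925). The call of the p3 arm was lost when any 1 CK library was left out, at adjusted p values of 0.121, 0.111 and 0.0969 without CK 1, CK 2 and CK 3, and kept when any 1 GLY library was left out. It was also lost with a filter of 20 in place of 10 (adjusted p = 0.111) and with the replicate number as a block (adjusted p = 0.0872). In bulk leaf RNA, fewer cells that hold a miRNA and less of it per cell cannot be told apart.

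Higher in GLY in all 3 libraries, but not past the adjusted threshold, were entries of the miR2122, miR6251 and miR5508 families. osa-MIR2122-p5_1ss15CT was at 10.6, 26.3 and 45.9 in CK against 113, 154 and 86.0 in GLY, so that every GLY library lay above every CK library, on means of 27.6 ± 17.7 and 117 ± 34.2 (SD, n = 3). Its log2 difference of 2.23 ± 0.61 had an adjusted p of 0.0760, which was 0.0356 without GLY 2. It was the eighth most abundant entry over all libraries but had the largest positive difference among the 34 tested entries. The mature osa-miR6251 was at 129.5, 108 and 128 in CK against 184, 164 and 182 in GLY (0.54 ± 0.28, adjusted p = 0.296). Its partner osa-MIR6251-p3 was at 7.93, 8.77 and 13.5 in CK against 36.1, 26.9 and 43.01 in GLY (1.72 ± 0.52, adjusted p = 0.0917, and 0.0193 without GLY 2). Groups did not overlap for either arm. The family sum was 132 ± 13.4 in CK against 212 ± 18.3 in GLY and did not pass the test (adjusted p = 0.292). Without GLY 2 the limma adjusted p of this sum was 0.0384. osa-miR5508 was low throughout, at 11.5, 9.64 and 8.65 in CK against 14.1, 14.9 and 18.9 in GLY (0.63 ± 0.58, adjusted p = 0.550).

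Lower in GLY without overlap were both arms of miR2871a, 1 arm each of miR3980a, miR1437a and miR1860, and osa-miR5542_R+1. osa-miR2871a-5p_R-3 was at 62.1, 57.0 and 87.0 in CK against 16.7, 33.6 and 33.6 in GLY (-1.31 ± 0.47, adjusted p = 0.151). osa-miR2871a-3p was at 30.0, 26.3 and 30.6 in CK against 20.5, 7.97 and 14.3 in GLY (-1.06 ± 0.54, adjusted p = 0.290). With osa-MIR2871b-p5, seen only in CK 3 and GLY 2, the family mean was 99.0 ± 20.1 in CK against 47.5 ± 10.03 in GLY (log2 difference -1.05 ± 0.40, adjusted p = 0.181, and 0.0260 without GLY 2). osa-miR3980a-3p was at 39.6, 51.7 and 68.6 in CK against 19.3, 13.4 and 18.9 in GLY, the lowest CK value being above the highest GLY value (-1.56 ± 0.46, adjusted p = 0.0871, and 0.0232 without GLY 2). osa-MIR1437a-p5 was at 108, 87.7 and 85.9 in CK against 57.2, 55.3 and 36.1 in GLY (-0.93 ± 0.36, adjusted p = 0.158, and 0.0373 without GLY 2). Less apart were osa-miR5542_R+1, at 59.6 ± 5.44 in CK against 36.5 ± 13.7 in GLY, and osa-MIR1860-p5, at 22.01 ± 9.97 and 12.5 ± 3.26 (adjusted p = 0.338 and 0.525). Its opposite arm osa-MIR1860-p3 was at 9.69, 13.2 and 15.1 in CK against 0, 10.5 and 0 in GLY, and was called only once GLY 2, the library with a value, was left out (adjusted p = 0.217 and 0.000700). That arm reached 10 in CK 2, CK 3 and GLY 2 only, so it was tested through the very library then left out. The plot of values by library shows the 7 entries with an unadjusted p under 0.05.

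**Figure D4:**
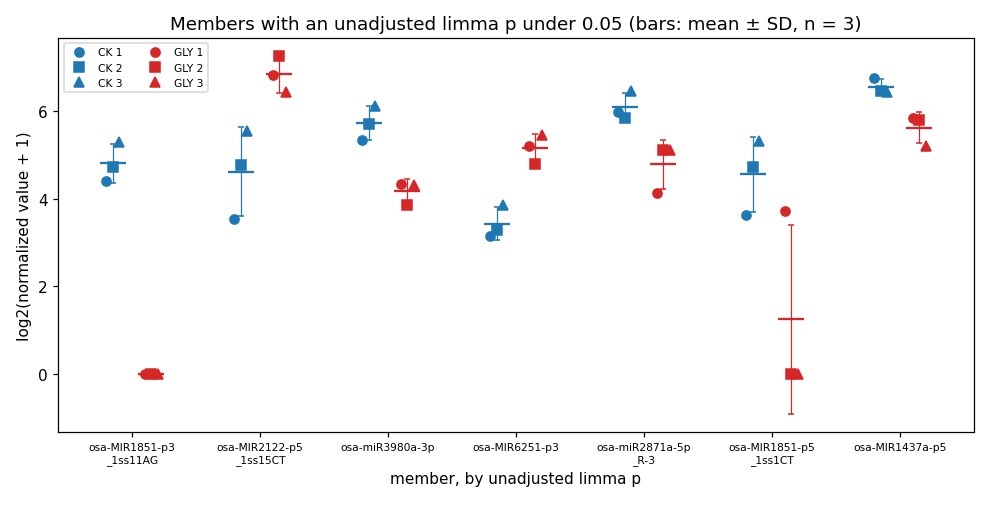
Points are single libraries (circle, square and triangle for libraries 1, 2 and 3; blue CK, red GLY) on a log2(normalized value + 1) axis, with lines at the mean and bars of 1 SD (n = 3 per group). Red and blue points are apart in 6 of the 7 entries; in osa-MIR1851-p5_1ss1CT the circle of GLY 1, at 12.3, lies beside that of CK 1, at 11.5.

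With all libraries none of the 6 most abundant entries was called, and in several the GLY 2 value set the spread. Among them, osa-miR1846d-3p_L+1 was called without GLY 2. osa-MIR5794-p3, the arm entry ranked 20 of 479 by mean value, was at 1499, 1689 and 1883 in CK against 1588, 906 and 1387 in GLY (-0.42 ± 0.30, adjusted p = 0.444), with GLY 1 inside the CK range. The next entry of the set, osa-miR3980a-5p, ranked 89. The miR1437 family, the next in sum, was at 389, 334 and 368 in CK against 365, 127 and 334 in GLY. Its log2 difference was -0.54 ± 0.49 with all libraries and -0.06 without GLY 2. Within it osa-MIR1437b-p3 was at 19.4 in GLY 2 against 152 and 131 in GLY 1 and GLY 3 and 101 to 137 in CK, and osa-miR1437a_R-1 at 43.3 against 100.2 and 141. Both therefore had a negative difference with all libraries (-0.66 and -0.36) and a positive one without GLY 2 (0.27 and 0.11). osa-MIR1437b-p5 had the same low library, at 8.96 against 55.4 and 25.8.

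For 3 families the group means lay close together, with standard errors that leave room for differences in either direction. miR2055 was at 107 ± 25.3 in CK against 107 ± 30.7 in GLY (log2 difference -0.02 ± 0.41), miR1857 at 64.4 ± 11.9 and 62.7 ± 9.196 (-0.03 ± 0.38), and miR3980 at 213 ± 52.6 and 191 ± 27.3 (-0.13 ± 0.35). osa-miR5513, a single mature entry, varied little, at 15.9, 14.9 and 14.1 in CK against 17.6, 14.9 and 17.2 in GLY. osa-MIR7695-p5 comes from the hairpin of miR7695, a rice miRNA with a known role in immunity against the blast fungus through a natural resistance-associated macrophage protein transcript. It was at 62.6, 68.4 and 109 in CK against 59.8, 77.7 and 41.3 in GLY (-0.42 ± 0.42, adjusted p = 0.588), with overlap. This entry is not the annotated mature miRNA, and other miRNAs with a role in that immunity, miR1871 and miR1873, had no entry in the set.

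Other families had values above CK in GLY 1 and GLY 3 alone. osa-miR1846d-3p_L+1 was at 77.5, 78.0 and 98.4 in CK against 142, 89.6 and 191 in GLY (0.67 ± 0.39, adjusted p = 0.337, and 0.0312 without GLY 2). It carried most of the miR1846 family, the largest by number of names with 5, whose sum was 123 ± 28.8 in CK against 191 ± 64.4 in GLY (adjusted p = 0.509). osa-miR3982-3p_L+1R-1 was at 30.0, 36.8 and 47.0 in CK against 87.1, 26.9 and 89.5 in GLY (0.66 ± 0.59, adjusted p = 0.550, and 0.0230 without GLY 2). In both, GLY 2 lay inside or below the CK range. osa-MIR2869-p5 had the reverse order, at 37.0, 29.8 and 31.9 in CK against 16.7, 41.8 and 12.04 in GLY (-0.65 ± 0.59, adjusted p = 0.550). The remaining tested entries, osa-miR5788, osa-miR2864.1_L-2R+2, osa-miR1857-3p, osa-MIR1857-p5, osa-miR1846d-5p, osa-miR5532_L+1R-3, osa-MIR2866-p3, osa-MIR2055-p5_2ss13TA18CG, osa-MIR1847-p3_2ss5CA20AG and osa-MIR1440a-p5_1ss17CT, all overlapped between the groups.

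As families, 23 of the 49 could be tested, and 0 of the 23 had an adjusted p under 0.05 by limma, against 6.86% of the 102 families tested in the table. At an unadjusted p under 0.05 there were 3, of which 1 was higher and 2 lower, against 23.5% of all families. These were miR2122, miR1851 and miR2871. Groups did not overlap for 6 of the 23, against 29.4%. Without GLY 2, 5 of the 23 were called, against 49.0% of all families (17.6% higher, 31.4% lower). miR2122, miR3982 and miR6251 were higher, and miR1851 and miR2871 lower. Of the 49 families 31 had a single entry here, so for most of them the family value was that of 1 sequence.

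Both arms of a hairpin were in the set for 19 hairpins, and their fit as a duplex varied. Aligned without gaps, and counting G paired with U, the arms of miR3980a and miR6251 paired at 18 of 19 positions each with a 3′ overhang of 2 bases on both ends, the form that DCL1 leaves. miR2871a and miR1427 had the same overhangs and 18 of 19 pairs, miR5510 had 17 of 19, miR1846a 16 of 19 and miR2055 12 of 19. In other hairpins the arms were offset: those of miR1857 paired at 14 of 14 aligned positions but left 7 bases unpaired at each 3′ end, and those of miR1437a left 9. The arms of miR1851, the hairpin of the called entry, paired at 14 of 15 and left 5 and 6 bases at the 3′ ends.

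The balance between arms was compared over the 46 hairpins of the table in which both arms passed the filter, 10 of them with arms in the set, in a test added after the values were seen. In miR3980a, log2 of the 5′ arm minus log2 of the 3′ arm was 1.82, 1.32 and 1.56 in CK against 3.33, 3.53 and 2.95 in GLY. Every GLY library thus held a greater excess of the 5′ arm than every CK library, with a shift of 1.70 ± 0.38 (SE). The adjusted p was 0.0726 by limma with Benjamini-Hochberg adjustment, and an exact permutation test gave 0.1, the smallest p that 3 against 3 libraries allow. In miR6251 the excess of the 5′ arm was 3.87, 3.48 and 3.15 in CK against 2.32, 2.57 and 2.06 in GLY, a shift of -1.19 ± 0.39 (adjusted p = 0.268). The other 8 hairpins overlapped between groups. No arm shift in the set was called by limma with all libraries (2 had an unadjusted p under 0.05), against 2.17% of the 46 hairpins called. Outside the set, the shifts of miR390, miR169r, miR394, miR529b and miR1423 also had an unadjusted limma p under 0.05. Groups did not overlap in 2 of 10 hairpins of the set, against 17.4%. Without GLY 2 there were 2 calls, miR3980a (1.57, adjusted p = 0.0248) and miR1860 (2.90, adjusted p = 0.0124), against 15.2%. The second of these rests on the zeros of osa-MIR1860-p3 in GLY 1 and GLY 3, and on a filter that this arm passed only with GLY 2. When each library was left out in turn, the limma adjusted p reached 0.499 for miR3980a and 0.635 for miR1860.

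**Figure D5:**
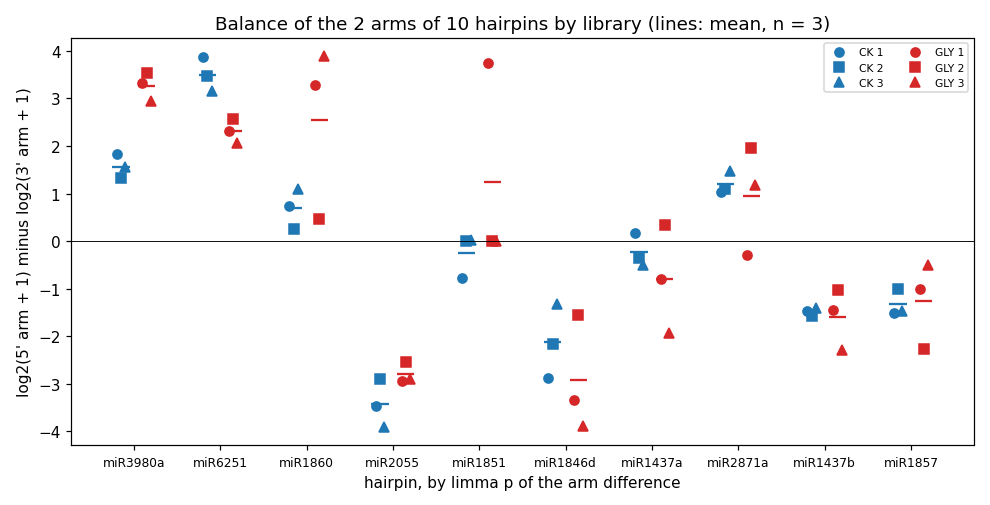
The vertical axis is log2(5′ arm + 1) minus log2(3′ arm + 1) for the 10 hairpins with both arms tested, with 1 point per library (blue CK, red GLY) and a line at the mean of 3. In miR3980a all red points, 2.95 to 3.53, lie above all blue points, 1.32 to 1.82, and in miR6251 all red points lie below the blue ones.

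The 41 entries under the filter held 11 of the 12 that were at 0 in all GLY libraries and all 9 that were at 0 in all CK libraries. One entry, osa-MIR7692-p3, was at 0 in the CK libraries and above 0 in each GLY library, at 6.16, 37.3 and 13.8, and it was too low in GLY 1 to be tested. osa-miR1427 was at 0, 0 and 0 in CK against 0, 17.9 and 55.1 in GLY, and its partner arm appeared in GLY 3 alone, at 10.3. The poplar-named ptc-miR1448_L+1R+1 was at 6.17, 0 and 0 in CK against 0, 14.9 and 163 in GLY, so that its GLY mean of 59.5 was set by GLY 3. osa-miR5810_R-3_1ss13TC was lower in GLY without overlap, at 9.25, 9.21 and 8.38 in CK against 3.96, 0 and 0 in GLY. In the paper's qPCR this entry tended to decrease, without a significant difference. Apart from osa-MIR7692-p3, these entries were chosen for description after their values were seen. Values of 21 entries never reached 10 in any library. The 10 entries found in a single library were osa-MIR2096-p5 and osa-miR1861e in CK 1, osa-MIR1864-p5 and osa-MIR2869-p3 in CK 3, osa-MIR3982-p5, osa-miR1856, osa-miR5082_L-1R-1 and osa-miR5510 in GLY 1, osa-MIR5156-p3 in GLY 2 and osa-MIR1427-p5_1ss11GA in GLY 3, and none of them exceeded 10.3.

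By name type, 17 of the 37 mature names and 17 of the 38 arm names were tested, with median log2 differences of -0.08 and -0.65, 0 and 1 calls by limma, and 2 and 5 at an unadjusted p under 0.05. Over all tested names, 11.2% were called and 27.1% had an unadjusted p under 0.05. The 3 entries of 20 nt summed to 57.3, 58.7 and 86.5 in CK and to 29.0, 14.9 and 39.6 in GLY. Of these, osa-miR5532_L+1R-3 was at 20.3, 17.5 and 14.6 in CK against 20.2, 0 and 25.8 in GLY, and its log2 difference was -1.14 with all libraries and 0.38 without GLY 2. By first base, entries that begin with T made up 79.6% ± 1.77 of the sum in CK against 75.4% ± 1.46 in GLY. The 6 entries that begin with G went from 5.50% ± 0.577 to 9.94% ± 1.504 (SD, n = 3). This was no common shift of these entries. Means in CK and GLY were 27.6 and 117 for osa-MIR2122-p5_1ss15CT and 84.6 and 141 for osa-miR1846d-3p_L+1. For osa-miR2871a-5p_R-3 they were 68.7 and 28.0, and the rest had means under 10 in both groups. These sums were not tested.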

How the data were processed

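The table was made by the authors from TruSeq small RNA libraries read single-end on an Illumina HiSeq 2500. Per the study's methods, adaptors and reads under 18 nt were removed, reads of other RNA classes were filtered, and the rest were assigned to miRBase 20.0 precursors with ACGT101-miR of unstated version. The deposited values are a signal, read counts normalized by the authors, by a scaling not given in the sources used here. Between 78.5% and 83.5% of low values were within 0.01 of a whole number of estimated reads, so no count test was used and no counting interval is given. Single values are therefore compared only with the spread between libraries.

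Of 582 rows, 103 exact repeats were removed. Names that reached 10 in 3 or more libraries were fitted as log2(value + 1) with limma 3.58.1 (trend and robust options) in R 4.3.3, GLY against CK, and p-values were adjusted over all 251 names by Benjamini-Hochberg. The filter used all 6 libraries, also where 1 was left out of a fit. Adding 1 understates changes of low entries. Families were summed by number within 20 to 22 nt. The steps were tested on simulated data, which for limma held no library that stood apart as GLY 2 did. The members and lists were chosen with earlier results of these data known. Entries named were those called, the 12 most abundant, the 10 with the smallest p, those at 0 in 1 group and above 0 in the other, the 5 highest and 5 lowest without overlap, both tested arms of a hairpin, and the 6 most abundant families and those with 2 or more names. Alternatives were other pseudocounts, filters and scalings, limma without its options, a replicate block, joined sequences and leaving out each library. Genome positions and targets were not analysed here.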

Additional observations from a re-analysis of the deposited data

How the results depend on the processing

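With all libraries, the count of called entries was 1 under the other pseudocounts, no filter, equal library totals and joined sequences, 0 with a filter of 20, 2 with median-ratio scaling (osa-MIR2122-p5_1ss15CT added) and 2 without the trend and robust options (osa-MIR6251-p3 added), and ranged from 0 to 10 when 1 library was left out. Called families numbered 0 except when 1 library was left out (0 to 5). Over the whole table, these other settings with all libraries called 15 to 24 names higher and 6 to 10 lower. When 1 library was left out, calls ran from 2 (all higher, without CK 1) to 125 (without GLY 2) of 251 names. For families they ran from 3 (all higher, without CK 1) to 50 (without GLY 2) of 102. The median log2 difference of the set was -0.27 with a pseudocount of 4, 0.027 with no filter, -0.55 with equal totals, -0.16 with median-ratio scaling and -0.51 to -0.13 when 1 library was left out. Over all names it was -0.46 as reported, -0.36 with a pseudocount of 4 and -0.083 with no filter. It was -0.60 with equal totals, -0.26 with median-ratio scaling and -0.63 to -0.17 when 1 library was left out. Entries without overlap numbered 11 to 20 of 34 when 1 library was left out, against 96 to 176 of all 251 tested names. With the replicate block, 0 entries were called (osa-MIR1851-p3_1ss11AG at an adjusted p of 0.0872 by limma). Over all names the block left 5 called higher and 1 lower. Same-numbered libraries deviated from their group means with correlations of -0.39, 0.094 and 0.47. With 3 libraries per group, and GLY 2 apart, these values cannot decide whether the numbers pair the samples.

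Median-ratio scaling turned the sign of osa-miR1846d-5p (0.063), osa-MIR1857-p5 (0.19), osa-miR1857-3p (0.12), osa-miR2055 (0.12) and the miR3980 (0.072), miR2055 (0.19) and miR1857 (0.17) families, and equal totals that of osa-miR3980a-5p (-0.016). When 1 library was left out, signs turned within -1.18 to 0.27 for osa-MIR1437b-p3, -0.73 to 0.11 for osa-miR1437a_R-1, -0.57 to 0.38 for osa-miR1846d-5p, -0.23 to 0.24 for osa-MIR1857-p5, -0.34 to 0.071 for osa-miR1857-3p and -0.29 to 0.15 for osa-miR2055. For families the ranges were -0.25 to 0.059 for miR3980, -0.22 to 0.20 for miR2055, -0.19 to 0.068 for miR1857 and -0.017 to 0.67 for miR1847. For arm shifts they were -1.14 to 0.0018 for miR1437a, -0.75 to 0.36 for miR2871a, -0.39 to 0.24 for miR1437b and -0.30 to 0.58 for miR1857. The cause was not tested.

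Of all 450 values in the set 157 were 0, and 41 entries could not be tested. The part of depth in this was not tested.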

Other observations

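Sequences outside the set overlapped osa-MIR2122-p5_1ss15CT, the entry with the largest positive difference. The first 14 bases of that 21-nt entry were the last 14 of a predicted miRNA of 24 nt, PC-5p-54159_121, and its first 13 were the last 13 of another, PC-5p-87922_28. They are shown because they share this run, and capitals mark the run that each predicted miRNA shares with the 21-nt entry.
osa-MIR2122-p5_1ss15CT: GAACTTAGACACCTtagcgcc
PC-5p-54159_121: atgtggcgctGAACTTAGACACCT
PC-5p-87922_28: catgtggcgctGAACTTAGACACC
PC-5p-54159_121 was at 9.69, 0 and 5.95 in CK against 19.3, 115 and 0 in GLY, and PC-5p-87922_28 at 0, 0 and 3.78 against 0, 31.4 and 0. Both were highest in GLY 2, as was the 21-nt entry at 154, and neither passed the filter.

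The seed of osa-MIR5510-p3, which was at 6.14 in CK 2 and 4.32 in CK 3 and at 0 elsewhere, was also that of osa-miR1432-5p_R+1. The latter was at 1028, 885 and 1118 in CK against 12752, 9846 and 9270.4 in GLY. The seed of osa-miR5501, at 4.32 in CK 3 and 5.28 in GLY 1, was also that of osa-MIR167c-p3.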
